A study of Mus musculus with 2 samples.

Results

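Single-cell mRNA sequencing (scRNA-Seq) was carried out on bone marrow-derived monocytes (BMDMs) of the mouse, cultured with M-CSF at 50 ng/ml and RANKL at 100 ng/ml to form osteoclasts (OCs), which resorb bone. Described here are the 436 cells of the LysM-Cre;Arid1afl/fl library that still held at least 2 Arid1a transcripts. They were selected on that readout from 4596 cells of the library, among 12320 barcodes of the series. Those 4596 cells had at least 500 genes, at most 10% mitochondrial transcripts and 10000 to 50000 unique molecular identifiers (UMIs, 1 per captured mRNA molecule), and cells with 5% or more of UMIs from S100a8 and S100a9, the genes of a neutrophil protein pair, were left out. The members were set beside 872 cells with 0 Arid1a UMIs, drawn so that both groups had the same distribution of total UMIs in bins of 5000 UMIs. Of the members, 341 held exactly 2 Arid1a UMIs, 62 held exactly 3 and 33 held 4 or more, with 5 as the highest count.

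In the LysM-Cre;Arid1afl/fl genotype, called the mutant here, a Cre recombinase expressed from the Lyz2 locus acts in myeloid cells on loxP-flanked Arid1a. The other library is labelled only as control and was cultured with the same factors. Each genotype was a single library, the number of animals behind a library and their age are not given in the labels, and the age was not used here. ARID1A is the large DNA-binding subunit of the canonical BAF (SWI/SNF) complex, which slides and evicts nucleosomes and so opens enhancers and promoters. ARID1B is its paralog and takes the same place in the complex. RANKL signals through NF-κB and AP-1 to NFATc1, the master transcription factor of OCs, and precursors stop dividing as they mature.

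Arid1a (ENSMUSG00000007880) lies on the minus strand of chromosome 4 at chr4:133406304-133484080 (GRCm39). Its canonical transcript has 20 exons and 8891 bases. The study's floxed allele has loxP sites around exons 5 and 6, at chr4:133423227-133423467 and chr4:133422883-133422975 when exons are numbered along that transcript. The pair spans 334 bases of coding sequence, which leaves a remainder of 1 after division by 3. Joined without them, exon 4 reads into exon 7 in another frame and meets a stop codon after 722 codons, in exon 8, where the intact frame has 2288 codons. The end of exon 6 lies 5948 bases from the end of the transcript. A 3′ kit counts transcripts at that far end, and so a transcript with or without exons 5 and 6 adds the same UMI. The 3 joins are shown because they are the sequences that would tell both kinds of transcript apart. Each gives 30 bases on either side of the join in transcript direction from the GRCm39 genome, and capitals mark bases of exons 5 and 6.
Exon 4 joined to exon 5, intact: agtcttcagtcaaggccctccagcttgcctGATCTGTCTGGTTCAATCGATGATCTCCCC
Exon 6 joined to exon 7, intact: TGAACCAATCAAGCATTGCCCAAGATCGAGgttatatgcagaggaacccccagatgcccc
Exon 4 joined to exon 7, recombined: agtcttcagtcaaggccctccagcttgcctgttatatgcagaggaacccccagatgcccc
The counts hold neither join, and whether an Arid1a UMI of a member came from an intact or a recombined allele cannot be told apart here. The members are therefore cells with Arid1a transcripts, not cells shown to have escaped recombination.

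The mutant library held 131800059 UMIs in 5865 barcodes and the control library 164004706 UMIs in 6455 barcodes. The cells used had a median of 22869.5 UMIs in the mutant and 24119 in the control library. The libraries shared 8 barcodes, of which 6 were among the mutant cells used and 0 among the members. With 1 library per genotype there is no replicate check, and no p-value is given. Levels are UMIs summed over a group of cells per 1e6 UMIs (CPM), and every interval is a 95% interval that covers counting error only. The same split by Arid1a UMIs was made in the control library as the background, with 1306 cells of 2 or more and 1306 cells of 0 Arid1a UMIs at one depth.

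The number of members was close to the number that a single Arid1a level in all mutant cells would give. Arid1a stood at 19.9 CPM (19.1 to 20.8) in the mutant library and at 50.9 CPM (49.7 to 52.0) in the control library. If each mutant cell drew Arid1a at one rate per UMI, 418 cells would hold 2 or more UMIs, and 436 were counted, a ratio of 1.04 (0.95 to 1.15). For exactly 2 UMIs the ratio was 1.00 (0.90 to 1.12), with 341 cells counted against 340. For exactly 3 UMIs it was 0.94 (0.72 to 1.21). The largest departure was at 4 or more UMIs, with 33 cells against 12.2 and a ratio of 2.70 (1.86 to 3.79), while cells of 1 UMI stood slightly below the single rate at 0.94 (0.890 to 0.996). In the control library the ratio was 1.10 (1.05 to 1.15) for 0 UMIs, 0.88 (0.83 to 0.94) for exactly 2 and 1.26 (1.14 to 1.39) for 4 or more, with 379 cells against 301. The single rate was taken from the Arid1a UMIs of these same cells, members included. The cells of 2 or 3 UMIs were thus about as many as that rate gives. The counts cannot show whether some of them kept Arid1a, because the members entered the rate.

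**Figure D1:**
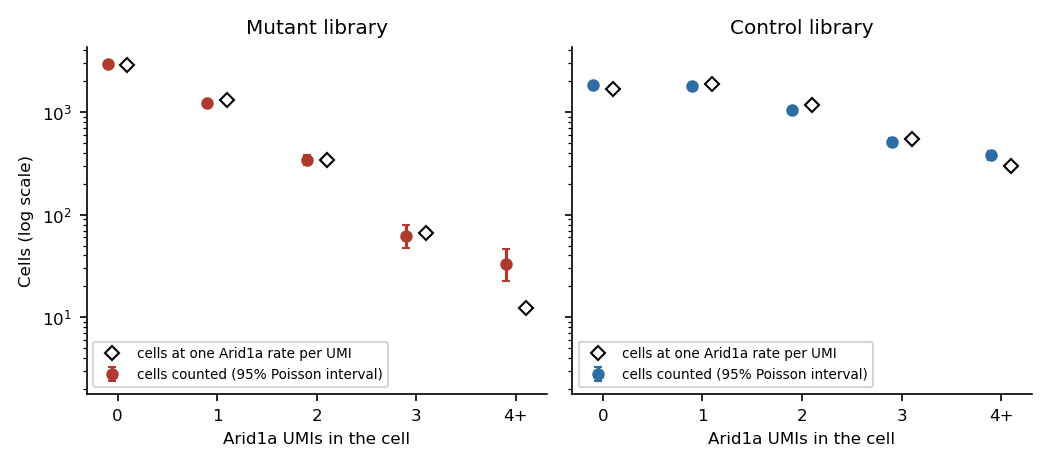
Number of cells (log scale) by Arid1a UMIs in the cell, for the mutant library on the left and the control library on the right. Filled points are the cells counted with 95% Poisson intervals, and open diamonds are the cells that one Arid1a rate per UMI would give. In the mutant library the points lie close to the diamonds from 0 to 3 UMIs and above at 4 or more, with 33 cells against 12.2.

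The share of members differed with the depth of the cell. It was 5.11% (3.56 to 7.06) of the 666 mutant cells with 10000 to 15000 UMIs and 22.4% (17.0 to 28.6) of the 214 cells with 40000 to 45000 UMIs, while Arid1a stood at 22.2 and 19.5 CPM in these cells. The deepest 123 cells, of 45000 to 50000 UMIs, did not continue this order, with 17.1% (10.9 to 24.9) members and 16.9 CPM. In the control library the shares in the same bins were 15.5% and 56.6%. No class of cells known to lack Arid1a was present, and the part that free RNA in the droplets has in single Arid1a UMIs was not tested.

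At one depth the members were close to the drawn cells in quality. Members had a median of 28105 UMIs and 4882.5 genes, and the drawn cells had 27742.5 UMIs and 4764 genes. The median mitochondrial share was 1.3% in members and 1.25% in drawn cells. A doublet caller marked 9.17% (6.64 to 12.3) of members and 5.96% (4.49 to 7.75) of drawn cells, and in the control split it marked 4.44% and 2.91%. Cells with at least 5 UMIs of stromal markers or of class II genes per 10000 UMIs numbered 13 of the 436 members and 15 of the 872 drawn cells. These are the cells left out where values are given without cells of stromal or class II genes. Of 347 UMIs of 10 stromal markers in the members, 346 came from 1 cell. Of the UMIs of 10 neutrophil markers, 82.4% came from 1 member, and of those of 9 class II and dendritic-cell markers, 48.1% came from 1 member. The 12 lymphoid, mast-cell and erythroid markers summed to 9 UMIs in the members and 31 in the drawn cells.

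The clearest difference was in cell division. G2/M-phase genes, which build the mitotic spindle and drive entry into mitosis, stood at 2595 CPM in members and 1819 CPM in the drawn cells, a log2 ratio of 0.51 (0.49 to 0.53). Of the 20 genes of the list, 18 were more than 1.3-fold higher in members and none was 1.3-fold lower, where 2.09% of the 5322 genes tested, those of at least 20 CPM, were past 1.3-fold higher and 0.169% past 1.3-fold lower. The median over the list was 0.49 on the log2 scale, against 0.044 over all genes tested. Cenpf, a kinetochore protein, stood at 148 CPM in members and 88.7 CPM in drawn cells, a log2 ratio of 0.74 (0.65 to 0.83). Top2a, the topoisomerase that untangles mitotic chromosomes, stood at 399.7 and 262 CPM, a log2 ratio of 0.61 (0.56 to 0.66). Plk1, a mitotic kinase, had a log2 ratio of 0.65 (0.51 to 0.79), and the kinesin Kif11 one of 0.62 (0.48 to 0.75). Ccnb2, a cyclin of mitotic entry, had the lowest ratio of the list at 0.28 (0.15 to 0.41).

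Single cells overlapped widely in these genes. The summed G2/M level ran from 0 to 11578 CPM over the members with a median of 1570 CPM, and from 0 to 9539 CPM over the drawn cells with a median of 806 CPM. Each cell was also thinned to 10000 UMIs and called cycling with 3 or more UMIs over Mki67, Top2a, Aurka and Cdk1. By this gate 64.0% of members (59.3 to 68.5) and 49.5% of drawn cells (46.2 to 52.9) were cycling, a difference of 14.4 points (8.66 to 20.1). Without thinning the shares were 78.0% and 65.8%. Without called doublets the log2 ratio of the list was 0.61, with 19 of 20 genes past 1.3-fold higher.

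G2/M-phase genes were higher in the control split as well, and whether the libraries differed in this was not tested. There the list had a log2 ratio of 0.66 (0.65 to 0.68) with 18 of 20 genes past 1.3-fold higher, beside 2.64% of the 5045 genes tested past it higher and 0.0991% past it lower. Its cycling shares were 66.6% and 45.1%, 21.5 points apart (17.7 to 25.3). When the cells of 0 Arid1a UMIs were drawn to the members' share of cycling cells as well as to their depth, the G2/M ratio in the mutant library was 0.11 with 0 of 20 genes past 1.3-fold, and 34 genes in place of 111 were past 1.3-fold higher. In the control library under this draw the G2/M ratio was 0.30. The draw matched cells on Mki67, Top2a, Aurka and Cdk1, so that a smaller G2/M ratio was partly set by the matching. In the mutant library it also held 436 cells of 0 Arid1a UMIs in place of 872.

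Genes of DNA replication differed less. The 19 S-phase genes, among them the MCM helicase subunits, had a summed log2 ratio of 0.12 (0.09 to 0.14). None of the 18 tested was past 1.3-fold, which is near the share over all genes tested, 2.09% higher and 0.169% lower. Rrm1 and Rrm2, the subunits of ribonucleotide reductase, were the highest at 0.29 (0.20 to 0.38) and 0.29 (0.17 to 0.40). Cdc6, a loading factor of replication origins, had the lowest ratio at −0.11 (−0.32 to 0.10). Histone genes of the replication-dependent clusters were among the largest ratios of all genes of at least 50 CPM. H4c4 stood at 80.7 CPM in members and 45.9 CPM in drawn cells, a log2 ratio of 0.81 (0.69 to 0.94). H1f4, H2ac8 and H1f5 had log2 ratios of 0.73, 0.66 and 0.66, and in the control split 0.74, 0.65 and 0.75. H2bc4 was the exception at −0.46 (−0.59 to −0.33). H4c4 and H1f4 overlap H2bc6 in the annotation, and H2bc4 overlaps H2ac6 on the other strand, and histone genes of one cluster are near copies, so that their counts are uncertain.

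**Figure D2:**
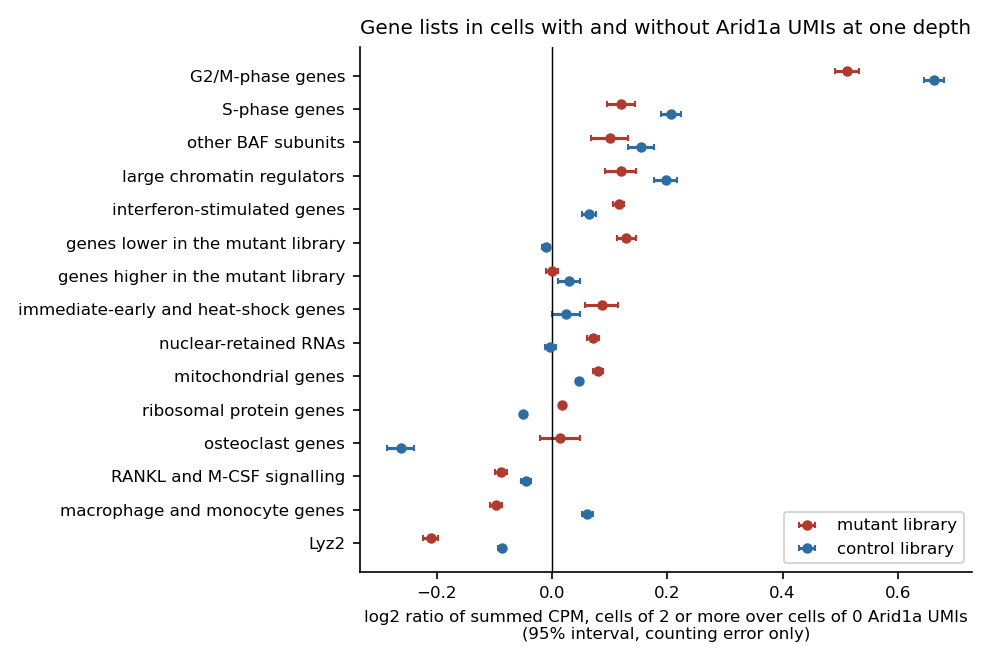
Log2 ratio of summed CPM between cells of 2 or more and cells of 0 Arid1a UMIs, for the gene lists and genes named on the y axis, in the mutant library and in the control library. Marker lists of other cell types are not plotted. Points are ratios and bars 95% intervals of counting error. Among those plotted the G2/M list is the highest in both libraries, at 0.51 and 0.66, and Lyz2 the lowest in the mutant library at −0.21.

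Lyz2, which encodes lysozyme and whose locus drives Cre, was lower in the members. It stood at 5146 CPM in members and 5955 CPM in drawn cells, a log2 ratio of −0.21 (−0.22 to −0.20). Over single cells the members ran from 31.2 to 22200 CPM with a median of 4232 CPM, and the drawn cells from 0 to 24727 CPM with a median of 4865 CPM, so that the groups overlapped over nearly the whole range. None of the members had 0 Lyz2 UMIs, 2 of the drawn cells did, and 22 members were below 500 CPM. In the control library Lyz2 stood at 10719 CPM in cells of 2 or more and 11390 CPM in cells of 0 Arid1a UMIs, a log2 ratio of −0.09 (−0.09 to −0.08). The ratio in the mutant library was below 0 under each of 12 other settings, between −0.21 and −0.10, and was smallest with cells also drawn to the cycling gate. Spi1 and Cebpb, transcription factors that activate the Lyz2 locus, had log2 ratios of 0.02 (−0.02 to 0.06) and −0.14 (−0.18 to −0.09).

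Macrophage and monocyte genes were slightly lower as a list. Their summed log2 ratio was −0.10 (−0.11 to −0.09), with 12 of the 16 tested below 0 and none past 1.3-fold, and the control split gave 0.06 (0.05 to 0.07). Over all 5322 genes tested in the mutant split, 1867 were below 0. Ccl2, a monocyte chemokine, stood at 809.8 CPM in members and 990.2 CPM in drawn cells, a log2 ratio of −0.29 (−0.32 to −0.26). Cd14, a co-receptor for lipopolysaccharide, had a log2 ratio of −0.21 (−0.31 to −0.10). Csf1r, the M-CSF receptor, stood at 408 and 401 CPM, a log2 ratio of 0.03 (−0.02 to 0.07). In the list of RANKL and M-CSF signalling none of 16 genes tested was past 1.3-fold. That is near the share over all genes tested, 2.09% higher and 0.169% lower. The summed list had a log2 ratio of −0.09 (−0.10 to −0.08), while 11 of the 16 genes were above 0 and their median was 0.05. Over all 5322 genes tested, 3455 were above 0. The 3 highest were Rela at 0.15 (−0.01 to 0.31), Nfkb1 at 0.14 (0.01 to 0.26) and Fos at 0.11 (0.06 to 0.16). The 3 lowest were Trem2 at −0.14 (−0.18 to −0.10) and the adaptors Tyrobp and Fcer1g, which carry the co-stimulatory signal for NFATc1. These adaptors had log2 ratios of −0.14 (−0.16 to −0.12) and −0.12 (−0.14 to −0.11).

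Osteoclast genes gave no single direction in the members. The summed list of 15 genes had a log2 ratio of 0.01 (−0.02 to 0.05), while its median over the 6 genes tested was 0.26. Cd9, a tetraspanin that makes up most of the sum, had a log2 ratio of −0.15 (−0.19 to −0.11). Ctsk, the cathepsin that digests bone collagen, stood at 29.8 CPM in members and 18.1 CPM in drawn cells, a log2 ratio of 0.72 (0.52 to 0.92). It was the 1 gene past 1.3-fold among the 6 tested, beside 2.09% higher and 0.169% lower over all genes tested. Acp5, the phosphatase behind TRAP staining, stood at 78.7 and 63.4 CPM, a log2 ratio of 0.31 (0.20 to 0.43). Nfatc1 stood at 34.0 and 27.1 CPM, a log2 ratio of 0.33 (0.15 to 0.51), but at 0.18 (−0.01 to 0.37) without called doublets and 0.12 (−0.06 to 0.30) without cells of stromal or class II genes. Without the latter cells Ctsk stood at 0.40 (0.19 to 0.60) and Acp5 at 0.19 (0.07 to 0.31). Mmp9, a gelatinase, and Dcstamp, a fusion receptor, were below the 20 CPM needed for testing, at 11.1 against 2.89 CPM and 4.41 against 2.13 CPM.

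These OC values rested on few cells. The member richest in each gene held 36.0% of the members' Mmp9 UMIs, 13.4% of their Ctsk UMIs and 12.6% of their Acp5 UMIs. With 3 or more UMIs over Ctsk, Mmp9, Acp5 and Dcstamp after thinning as the OC gate, 48 members or 11.01% (8.23 to 14.3) and 70 drawn cells or 8.03% (6.31 to 10.0) were inside, a difference of 2.98 points (−0.45 to 6.72). Without thinning the shares were 28.2% and 26.3%. Both gates held 30 members and neither gate held 139. In the control library cells of 2 or more Arid1a UMIs had lower OC genes, with a summed log2 ratio of −0.26 (−0.29 to −0.24), Ctsk at −0.56, Mmp9 at −0.51 and Acp5 at −0.31. Without cells of stromal or class II genes the summed list stood at −0.05 in the mutant library.

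Interferon-stimulated genes, which were far higher in the mutant than in the control library, were at the mutant's level in the members. The list of 45 genes stood at 11334 CPM in members and 10460 CPM in drawn cells, against 2883 CPM in 2180 control cells drawn to the same depth. Its log2 ratio of members over drawn cells was 0.12 (0.11 to 0.13). Of the 42 genes tested, 3 were past 1.3-fold higher and none past it lower, beside 2.09% and 0.169% of all 5322 genes tested. Gbp2, a guanylate-binding GTPase, had the highest ratio at 0.56 (0.41 to 0.71), Rsad2, the antiviral protein viperin, stood at 0.46 (0.36 to 0.55) and Cxcl10, a T-cell chemokine, at 0.43 (0.37 to 0.48), and the member richest in each held 14.3%, 11.8% and 6.52% of their UMIs. With another draw Gbp2 and Cxcl10 stood at 0.31 and 0.36, below 1.3-fold. Cxcl10 stood at 0.10 without called doublets, and without cells of stromal or class II genes Gbp2 stood at 0.17 and Rsad2 at 0.35. Bst2, the virion tether, was the lowest at −0.04 (−0.06 to −0.01). Over single members the list ran from 2988 to 83578 CPM with a median of 10597 CPM, and the median of the drawn cells was 9864 CPM. In the control split the list had a log2 ratio of 0.06 (0.05 to 0.08).

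Ly6a, a surface antigen induced by interferon, was at 0 UMIs in 44 members or 10.1% (7.43 to 13.3) and in 144 drawn cells or 16.5% (14.1 to 19.1). In turn, the 656 mutant cells with 0 Ly6a UMIs held Arid1a at 17.9 CPM (15.9 to 20.2) and the other 3940 at 20.3 CPM (19.4 to 21.2).

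Where the members lay between the other mutant cells and the control cells was read from 2 lists of 50 genes. These were the genes with the highest and the lowest ratio of mutant cells with exactly 1 Arid1a UMI over all control cells, so that neither members nor drawn cells chose them. The control cells did enter the choice. Their distance from the drawn cells on these lists was therefore partly set by it and is no independent scale. The genes higher in the mutant library stood at 8663 CPM in members and 8663 CPM in drawn cells, with an interval of the log2 ratio from −0.01 to 0.01, whereas control cells at the same depth stood at −2.66 (−2.67 to −2.65) against the drawn cells. The equality of members and drawn cells belonged to this draw. Their ratio was below that interval with another draw and without called doublets, and above it with Arid1a counted on thinned cells. The genes lower in the mutant library stood at 3746 CPM in members and 3427 CPM in drawn cells, a log2 ratio of 0.13 (0.11 to 0.14), against 1.45 (1.44 to 1.46) for control cells. Of these 50 genes 41 had the sign of the control cells, and the median gene was at 0.16 in members and 1.34 in control cells. Over all 5322 genes tested, 3455 were above 0 in members and the median was 0.044. In the control split the same list had a log2 ratio of −0.011 (−0.018 to −0.004).

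The other genes of the BAF complex were close to even. Their sum, without Actb, had a log2 ratio of 0.10 (0.07 to 0.13). None of the 17 subunits tested was past 1.3-fold, which is near the share over all genes tested, 2.09% higher and 0.169% lower. Pbrm1, the bromodomain subunit of the polybromo complex, stood at 120 CPM in members and 101 CPM in drawn cells, a log2 ratio of 0.25 (0.16 to 0.34). Arid1b stood at 31.1 and 26.5 CPM, a log2 ratio of 0.23 (0.05 to 0.41), and at least 1 Arid1b UMI was found in 233 members. Smarcb1, a core subunit, had a log2 ratio of −0.03 (−0.18 to 0.12). In the control split the list stood at 0.15 (0.13 to 0.18) and Arid1b at 0.30.

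Large chromatin regulators, chosen because their transcripts are long like that of Arid1a, had a summed log2 ratio of 0.12 (0.09 to 0.15) with 24 of 25 genes above 0 and none past 1.3-fold, and 0.20 (0.18 to 0.22) in the control split. Over all 5322 genes tested in the mutant split, 3455 were above 0. The methylcytosine dioxygenase Tet3 and the mediator subunit Med13 were the highest, at 0.31 (0.13 to 0.49) and 0.30 (0.15 to 0.45), and the helicase Chd3 was the lowest at −0.02 (−0.21 to 0.16). Ribosomal protein genes stood at 0.017 (0.014 to 0.019) in the mutant and −0.050 (−0.052 to −0.049) in the control split. Among nuclear-retained RNAs Malat1 had a log2 ratio of 0.07 (0.06 to 0.08) and Kcnq1ot1 one of 0.14 (0.05 to 0.24), and none of 5 was past 1.3-fold. None of 9 immediate-early and heat-shock genes tested was past 1.3-fold either, with Ier2 at 0.23 (0.04 to 0.41) and Ier3 at −0.19 (−0.35 to −0.03). For lists of these sizes, 0 genes past 1.3-fold is near the share over all genes tested, 2.09% higher and 0.169% lower.

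Few genes were lower in the members. Of the 5322 genes tested 9 were past 1.3-fold lower. Marco, a scavenger receptor of macrophages, stood at 40.8 CPM in members and 76.7 CPM in drawn cells, a log2 ratio of −0.91 (−1.06 to −0.77), and at −0.27 in the control split. Its UMIs came from 41 of the 436 members and 124 of the 872 drawn cells, with 16.5% of the members' UMIs in 1 cell. Ccl6, a chemokine, had a log2 ratio of −0.62 (−0.75 to −0.48) and stood at 0.27 in the control split. Mmp12, the macrophage elastase, stood at 407 and 562 CPM, a log2 ratio of −0.47 (−0.51 to −0.42), and at −0.67 in the control split. Hmox1, which degrades heme, had a log2 ratio of −0.43 (−0.51 to −0.36), and stood at 0.05 (0.00 to 0.09) in the control split. The lectin Clec4e had one of −0.35 (−0.43 to −0.28), but −0.15 (−0.23 to −0.07) with another draw, and 0.19 (0.12 to 0.26) in the control split. Slpi, a protease inhibitor, gave no stable direction. It stood at −0.43 (−0.56 to −0.29), with 23.9% of the members' UMIs in 1 cell, but at 0.01 (−0.13 to 0.15) with another draw, 0.04 (−0.11 to 0.18) without cells of stromal or class II genes and 0.16 (−0.01 to 0.32) with cells drawn also to the cycling gate.

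A single cell also set the largest ratio among genes of at least 50 CPM. S100a8 stood at 115 CPM in members and 45.4 CPM in drawn cells, a log2 ratio of 1.33 (1.22 to 1.45), and 77.7% of the members' UMIs lay in 1 member. That cell held 4 Arid1a, 1111 S100a8, 592 S100a9, 77 Elane and 90 Prtn3 UMIs and 1 Ly6a UMI. Elane and Prtn3 encode proteases of granulocyte precursors. Its S100a8 and S100a9 UMIs were below the 5% at which cells were left out. Without cells of at least 3 UMIs over Elane, Prtn3 and Mpo the S100a8 ratio was −0.85, whereas the G2/M ratio was 0.49 with 16 of 20 genes past 1.3-fold.

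Across genes the splits of both libraries resembled each other at the high end. Over 2401 genes of at least 50 CPM in both, the log2 ratios had a Pearson r of 0.67 and a Spearman rho of 0.58, given as a description across genes, which are not independent replicates and share the cell cycle and the same depth draw. Of the 30 genes past 1.3-fold higher in the mutant split, 30 were above 0 and 25 past 1.3-fold higher in the control split. Of the 4 past 1.3-fold lower, 2 were below 0 and 1 past 1.3-fold lower in the control split. Over all 2401 genes, 39 were past 1.3-fold higher and 1 past 1.3-fold lower in the control split. Among the 5045 genes tested there, 3588 were above 0 and 1457 below.

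**Figure D3:**
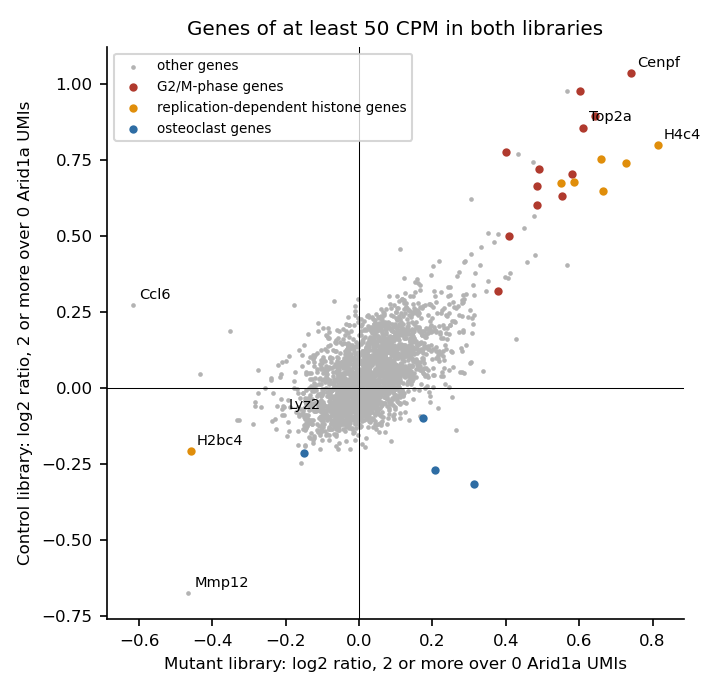
Log2 ratio of cells of 2 or more over cells of 0 Arid1a UMIs for 2401 genes of at least 50 CPM in both libraries, in the mutant library (x axis) and the control library (y axis). G2/M-phase genes (red) and histone genes (orange) lie at the upper right except H2bc4, and the 4 osteoclast genes shown (blue) lie below 0 in the control library. Mmp12 is the lowest gene in the control library at −0.67.

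The mutant cells just outside the rule, 436 cells of exactly 1 UMI drawn to the same depth, lay between the cells of 0 and of 2 UMIs in G2/M-phase genes and in the cycling gate. G2/M-phase genes stood at 1819, 2289, 2489, 2783 and 3222 CPM in cells of 0, 1, exactly 2, exactly 3 and at least 4 Arid1a UMIs. The cycling gate held 49.5%, 58.3%, 61.6%, 75.8% and 66.7% of these cells. Lyz2 stood at 5955, 5625, 5124, 5409 and 4871 CPM, with no even order past 2 UMIs. Cells of exactly 3 and of at least 4 UMIs were deeper, with medians of 30950 and 30916 UMIs.

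The OC genes Acp5 and Mmp9 were highest at the upper end of this order, from few cells. Acp5 stood at 63.4 CPM in cells of 0, 78.4 in cells of 1, 57.1 in cells of exactly 2, 138 in cells of exactly 3 and 169 in cells of at least 4 Arid1a UMIs, beside 111 CPM in control cells. Of the 262 Acp5 UMIs in the 62 cells of exactly 3 Arid1a UMIs, 124 came from 1 cell. Mmp9 stood at 2.89, 6.27, 4.61, 16.9 and 60.4 CPM, beside 61.8 CPM in control cells. Its 32 UMIs in cells of exactly 3 Arid1a UMIs came from 2 of the 62 cells. Of its 63 UMIs in cells of at least 4, 50 came from 1 cell, and without that cell Mmp9 stood at 12.9 CPM (6.88 to 22.1) and Acp5 at 114 CPM (94.3 to 137). The OC gate held 9.68% of the cells of exactly 2 UMIs, 11.3% of those of exactly 3 and 24.2% of the 33 cells of at least 4, which is 8 cells. Interferon-stimulated genes stood at 10071 CPM in the cells of at least 4 UMIs, near the 10460 CPM of the drawn cells and far from the 2883 CPM of control cells. Genes lower in the mutant library stood at 4332 CPM in these cells, beside 9340 CPM in control cells.

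**Figure D4:**
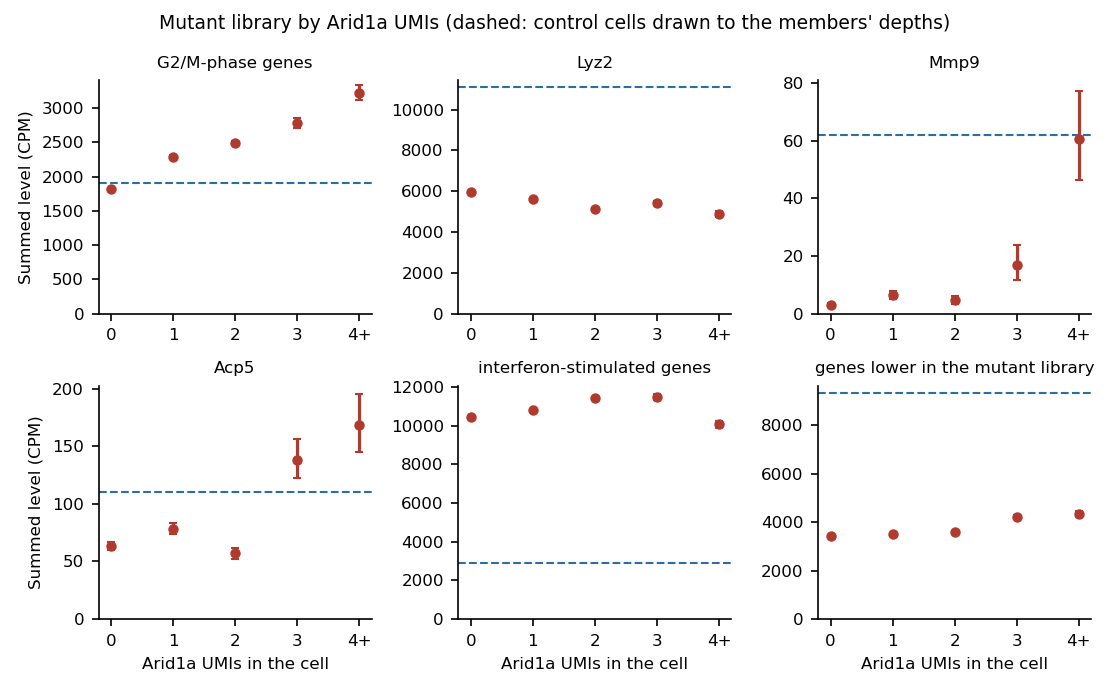
Summed level in CPM across mutant cells of 0, 1, 2, 3 and 4 or more Arid1a UMIs, 1 panel for each gene or list, with 95% Poisson intervals. A dashed line gives the level in control cells drawn to the members' depths. Mmp9 reaches 60.4 CPM in the 33 cells of 4 or more UMIs, 50 of its 63 UMIs being from 1 cell and the level 12.9 CPM without it, beside 61.8 CPM in control cells, while interferon-stimulated genes stay above 10000 CPM in every class, beside 2883 CPM in control cells.

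The 33 members of at least 4 Arid1a UMIs were a mixed group. Their total UMIs ran from 18111 to 49054 with a median of 30916, their Lyz2 UMIs from 1 to 414 with a median of 144, and their Ly6a UMIs from 0 to 129 with a median of 26. The cycling gate held 22 of them, and 3 were called doublets. Mmp9 was found in 3 of the 33 cells. One held 50 Mmp9, 46 Ctsk, 61 Acp5, 12 Dcstamp and 8 Emp2 UMIs with 2 Lyz2, 13 Ly6a and 28 Top2a UMIs. Another held 7 Mmp9, 33 Acp5, 12 Dcstamp and 11 Dennd5b UMIs with 1 Lyz2 and 0 Ly6a UMIs, and the third held 6 Mmp9, 10 Acp5 and 11 Emp2 UMIs. Emp2 and Dennd5b were among the genes lower in the mutant library, at 95.5 and 42.6 CPM in control cells and 7.31 and 5.18 CPM in the drawn cells. Without the first of these cells, Ctsk stood at 8.94 CPM (4.09 to 17.0) in the remaining 32 cells, beside 52.7 CPM in all 33.

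Arid1a itself was then read over classes of mutant cells, which were chosen after values were seen. In cells inside the cycling gate it stood at 22.5 CPM (21.3 to 23.7) and outside at 17.2 CPM (16.1 to 18.3), and in the control library at 57.9 CPM (56.2 to 59.5) and 40.8 CPM (39.2 to 42.5). Across Lyz2 classes the mutant cells below 500 CPM of Lyz2 held Arid1a at 24.5 CPM (20.1 to 29.7) and those at 8000 CPM or more at 19.1 CPM (17.4 to 20.9). Against control cells of the same Lyz2 class the log2 ratios were −0.94 (−1.25 to −0.63) and −1.37 (−1.51 to −1.23). Between them, the 218 cells of 500 to 1000 CPM stood at −1.14 (−1.45 to −0.83), and the classes from 1000 to 8000 CPM at −1.46 to −1.39. Mutant cells below 500 CPM of Lyz2 also held Mmp9, Ctsk and Acp5 at 61.5, 110 and 355 CPM. Those at 8000 CPM or more held them at 0.50, 12.3 and 56.3 CPM. Lyz2 level and OC transcripts thus varied together, and their separate relation to Arid1a was not tested.

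Cells with many OC transcripts held Arid1a near the control level, from few UMIs. In 15 mutant cells with 10 or more UMIs over Mmp9 and Dcstamp, Arid1a stood at 44.8 CPM (27.7 to 68.5), from 21 UMIs, and in 269 control cells of this class at 44.3 CPM (39.8 to 49.1), a log2 ratio of 0.02 (−0.69 to 0.65). Of the 15 cells 9 held Arid1a, 6 were members, 4 had 0 Ly6a UMIs, 1 was called a doublet and 0 shared a barcode with the control library. They held Ly6a at 294 CPM, beside 12.7 CPM in the control cells of the class and 1205 CPM in mutant cells without Mmp9 and Dcstamp UMIs. With 3 to 9 UMIs over these genes, 40 mutant cells held Arid1a at 21.3 CPM (13.5 to 32.0) and 535 control cells at 51.1 CPM (47.5 to 54.9), a log2 ratio of −1.26 (−1.93 to −0.66).

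For mutant cells with transcripts of other cell types the Arid1a levels rested on few UMIs. Mutant cells left out for 5% or more of UMIs from S100a8 and S100a9 held Arid1a at 52.0 CPM (38.4 to 69.0) over 83 cells of any depth, from 48 UMIs, and the 16 such control cells at 53.6 CPM (21.6 to 111). In 4 mutant cells with 10 or more UMIs of stromal markers it stood at 77.3 CPM (41.1 to 132), from 13 UMIs at any depth, and in 7 such control cells at 52.7 CPM (27.2 to 92.1). The 3 of these mutant cells within the depth window held 4 Arid1a UMIs, 40.7 CPM (11.1 to 104). In 9 mutant cells with 3 or more UMIs over Elane, Prtn3 and Mpo it stood at 41.3 CPM (17.8 to 81.4). In 118 mutant cells with 10 or more UMIs of class II genes it stood at 23.3 CPM (17.9 to 29.7), beside 55.6 CPM (42.5 to 71.6) in 41 control cells. The intervals of the granulocyte, class II and in-window stromal cells hold the 19.9 CPM of the mutant library.

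**Figure D5:**
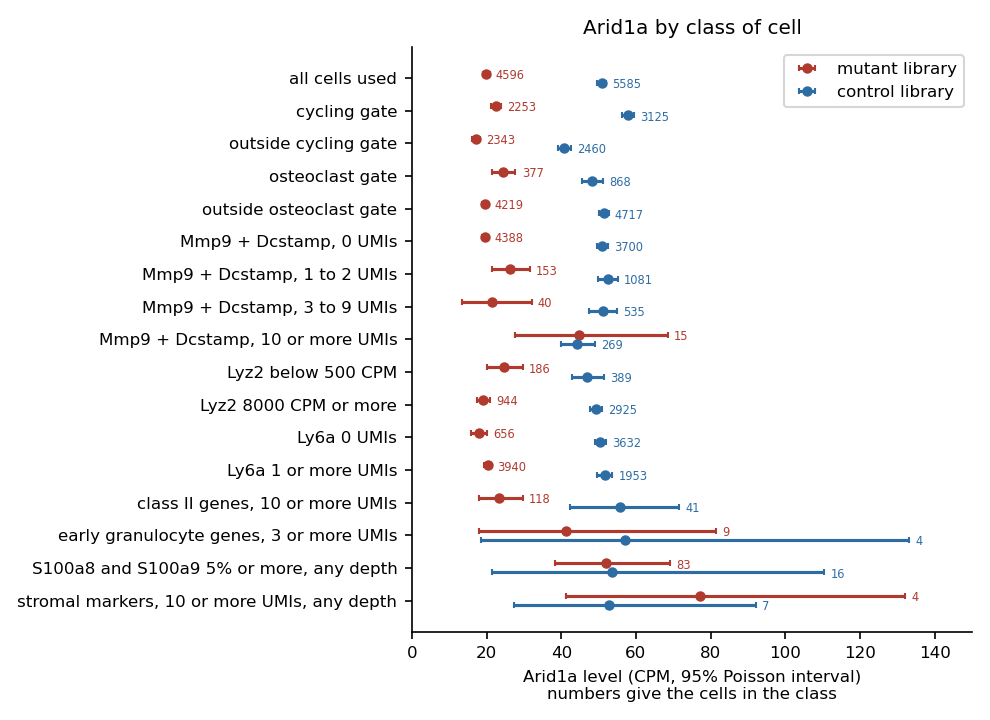
Arid1a level in CPM with 95% Poisson intervals by class of cell in the mutant and the control library, with the number of cells in each class printed beside its interval. The mutant level lies below the control level with no overlap in the classes of over 30 mutant cells among the cells used, while the intervals overlap for cells with 10 or more Mmp9 and Dcstamp UMIs, cells of granulocyte genes, cells high in S100a8 and S100a9, and stromal cells.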

How the data were processed

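ScRNA-Seq was read from 2 libraries, 1 control and 1 LysM-Cre;Arid1afl/fl, grouped by the genotype in the labels. Raw UMI counts for each gene and barcode were deposited, which the authors obtained with Cell Ranger 6.1.0 per the file header. The study's methods name GRCm39. Whether counting used strand and whether reads were subsampled between libraries are not given in the sources used here. Of the genes named, Acp5, Aurka, Ccl6, Cd9, Cdk1, Cebpb, Csf1r, Cxcl10, Kcnq1ot1, Med13, Mmp12, Nfatc1, Pbrm1 and Tet3 overlap a gene on the opposite strand and Slpi overlaps Matn4.

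Cells passed the rule on genes, mitochondrial share, depth and S100a8 and S100a9 given with the results. Members, gene lists (the library contrast lists hold 50 genes each) and the named genes (the gate genes, the 8 highest and 8 lowest ratios of at least 50 CPM, and 3 at each end of a list) were chosen with earlier results of these data known. Counts were summed over cells and compared as log2 ratios with exact conditional intervals, and shares with Clopper-Pearson intervals, in Python 3.11.15 with SciPy 1.17.1. Genes of at least 20 CPM over both groups were tested against 1.3-fold. The depth per cell, 10000 to 50000 UMIs, sets the precision: 1 Arid1a UMI is near the limit of detection. Doublets were called from 2 artificial pairs per barcode over 50 neighbours and kept in the main groups. The script for log2 ratios and intervals was tested on simulated counts with known changes. Coordinates and junctions came from GENCODE M39, which held 31977 of the 32544 gene identifiers. Alternatives were other draws, bins, thresholds, gates, floors and cell filters. Cells outside the depth window enter only values said to be of any depth or outside the window.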

Additional observations from a re-analysis of the deposited data

Results flagged for a closer look

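In 2 of the main results the intervals of both libraries lay wholly on opposite sides of 0 in the split by Arid1a UMIs. The OC list, at 0.01 and −0.26, and the OC gate, at 2.98 and −1.38 points, also differed in sign, but their mutant intervals held 0. The macrophage and monocyte list, outside the main results, stood at −0.10 in the mutant and 0.06 in the control split. None of these differences between the libraries was tested. The genes lower in the mutant library had a summed log2 ratio of 0.128 in the mutant split and −0.011 in the control split. The control value was above 0, between 0.00034 and 0.0095, under 7 of the other settings. The ribosomal protein genes had a summed log2 ratio of 0.0167 in the mutant split and −0.050 in the control split.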

How the results depend on the processing

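No paired analysis was possible because each genotype is 1 library and the labels carry no replicate numbers. Under the alternatives, 86 values of the main results kept within counting error, or within 1.5-fold for counts of genes, 67 moved and 1 reversed. Those that moved are given by setting, and the cause was not tested. With all cells of 0 Arid1a UMIs weighted by bin, Lyz2 stood at −0.173, the mutant-higher list at −0.030 and interferon-stimulated genes at 0.104 (log2). With another draw these were −0.156, −0.074 and 0.106, ribosomal protein genes 0.026 and 16 genes past 1.3-fold lower. With bins of 2000 UMIs they were −0.184, −0.033 and 0.079, large chromatin regulators 0.175, ribosomal protein genes 0.0014 and 15 genes lower. With members of 3 or more Arid1a UMIs, Lyz2 was −0.155, the mutant-higher and mutant-lower lists −0.014 and 0.291, interferon-stimulated genes 0.082, chromatin regulators 0.165, BAF subunits 0.165, OC genes 0.293, ribosomal protein genes 0.055, the gate differences 23.0 points (cycling) and 7.82 points (OC), and 441 genes were higher and 88 lower. With 15000 to 40000 UMIs, Lyz2 was −0.108, the 2 library lists −0.038 and 0.106, interferon-stimulated genes 0.060, ribosomal protein genes 0.0195 and 25 genes lower. Without called doublets the mutant-higher list was −0.070, interferon-stimulated genes 0.088, ribosomal protein genes 0.022 and 14 genes lower. Without stromal or class II cells, Lyz2 was −0.148, the library lists −0.051 and 0.090, interferon-stimulated genes 0.094, OC genes −0.054, ribosomal protein genes 0.012 and 15 genes lower. With Arid1a counted on cells thinned to 10000 UMIs, which left 99 members, Lyz2 was −0.169, the library lists 0.102 and 0.023, interferon-stimulated genes 0.104, chromatin regulators 0.158, BAF subunits 0.132, OC genes −0.154, 364 genes were higher and 78 lower, and ribosomal protein genes reversed to −0.035. With equal weight per cell, Lyz2 was −0.174, the library lists 0.023 and 0.104, interferon-stimulated genes 0.126 and ribosomal protein genes 0.0021. With cells drawn also to the cycling gate, a choice made after the data were seen like the next, Lyz2 was −0.102, the mutant-higher list 0.015, interferon-stimulated genes 0.106, ribosomal protein genes 0.027, the cycling difference 0 points and 34 genes higher. Without cells of granulocyte genes, interferon-stimulated genes were 0.128. A floor of 5 CPM gave 348 genes higher and 46 lower, and one of 50 CPM gave 40 higher. Medians reversed for the mutant-higher list (−0.010 with another draw, −0.023 with 2000-UMI bins, −0.019 in 15000 to 40000 UMIs, −0.027 without doublets, −0.010 without stromal or class II cells) and, on thinned calls, for OC genes (−0.139), ribosomal protein genes (−0.040) and the mutant-lower list (−0.023). In the control split the mutant-lower sum reversed to 0.0022 with all cells of 0 UMIs, 0.0060 in 15000 to 40000 UMIs, 0.0068 without doublets, 0.0095 without stromal or class II cells, 0.0081 on thinned calls, 0.00034 with equal weights and 0.0037 with the cycling draw. The mutant-higher sum there reversed to −0.029 with another draw and −0.077 on thinned calls, and with another draw its median was −0.0083 and that of interferon-stimulated genes −0.028. Depth limits all values resting on single Arid1a UMIs.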

Other observations

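Replication-dependent histone genes, a list set by symbol after some of them were seen among the highest ratios, were described in addition. Their summed log2 ratio in members over drawn cells was 0.56, with 10 of 12 genes tested past 1.3-fold higher and H2bc4 past it lower. In the control split it was 0.61 with 9 of 12 past it higher. Over all genes tested, 2.09% were past it higher and 0.169% lower in the mutant split, and 2.64% and 0.0991% in the control split. The high counts of the list were partly set by how it was chosen. With cells also drawn to the cycling gate the sums were 0.30 and 0.28. Over single cells the median was 412 CPM in members and 303 CPM in drawn cells, and the upper quartile 1940 and 834 CPM. H3c3, a core histone gene, stood at 51.3 CPM in members and 33.2 CPM in drawn cells, a log2 ratio of 0.62 (0.47 to 0.78), and the linker histone gene H1f2 at 0.31 (0.14 to 0.49).

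Outside the depth window, 743 mutant cells below it held Arid1a at 27.6 CPM (22.6 to 33.3) and 241 above it at 20.2 CPM (17.9 to 22.6), and 11 and 76 of them had 2 or more Arid1a UMIs. The control cells stood at 59.8 CPM (49.5 to 71.7) and 58.6 CPM (55.3 to 62.1). Called doublets among the mutant cells used held Arid1a at 22.9 CPM (19.3 to 26.9), beside 19.8 CPM (18.9 to 20.6) in the other cells.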
